A study of Mus musculus with 10 samples.

Results

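The cell cycle and DNA replication genes described here are 44 mouse genes that cells express as they copy and divide their chromosomes. They were chosen by symbol from a list of known cell cycle genes, and every one reached at least 1 TPM (a transcript level corrected for length and library size) in 2 or more of the 10 libraries, out of 28987 gene identifiers in the files. By role, 21 act in the G1 to S transition and in DNA replication and 23 act in mitosis. The gene closest to the minimum was Cdc6, whose second highest library held 3.30 TPM, so no gene lay just inside or just outside it.

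The cells were primary white adipocyte cultures made from the inguinal fat pads of male C57BL/6 mice, a wild-type inbred strain, 6 to 8 weeks of age, and grown to confluence. RNA was taken 24 hours after treatment with saline, with 500 ng/ml of the recombinant cytokine BAFF, with 500 ng/ml of the related cytokine APRIL, with 100 ng/ml of LPS (a bacterial cell wall component) or with 1 mM norepinephrine (the sympathetic transmitter), in 2 libraries per group. No step of induced differentiation is given in the sources used here. Whether the 2 libraries of each group derive from separate cultures or animals is not stated either, so each p-value reflects only how far these libraries vary, which may be technical. Saline is the reference of each comparison, so the 4 comparisons with it share the same 2 libraries. The files give no counts, and the depth behind each value is therefore unknown.

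Cells that leave the resting state first make G1 cyclins, whose kinases release E2F transcription factors to switch on genes for origin licensing, the replication fork and nucleotide supply. A later wave, driven by the MuvB complex with B-Myb (Mybl2) and FoxM1 through promoter elements named CHR, brings the cyclins, kinases, motors and checkpoint proteins of mitosis. Mature adipocytes do not divide, while the fat cell precursors and fibroblasts that grow in such cultures do. In bulk RNA the mitotic genes therefore report mainly on dividing cells of any type. The replication genes need not come from dividing cells alone, which was not tested. Fewer dividing cells and less RNA per dividing cell cannot be told apart.

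The 2 libraries labelled APRIL differed from the other 8 before any comparison was made. The labels give male mice for all groups, yet 4 Y-linked genes, at a summed 93.8 to 123 TPM in each of the other 8, came to only 0.489 and 0.775 TPM here. Across genes, their log2 levels correlated with those of the other libraries at r = 0.850 to 0.886, whereas the other 8 correlated among themselves at 0.948 to 0.991. These 2 libraries are therefore called by their label only. The test over all groups is given with and without them. The comparisons of 2 groups took their spread from all 10 libraries, these 2 included. The labelled cell type was checked on 10 adipocyte markers, which summed to between 2508 and 15918 TPM over the libraries. They included Adipoq, the adipokine adiponectin, at 917 to 1097 TPM with saline, BAFF and norepinephrine, 379 and 549 with LPS and 299.7 and 100.3 in the libraries labelled APRIL. The adipocyte markers did not move together there. Fabp4, Retn and Cfd also lay below saline, whereas Plin1, Cidec, Lipe and Pnpla2 overlapped it. Pparg lay above it, at 312.8 and 176.9 TPM against 80.7 and 88.5 TPM with saline. Lep, the gene of the fat cell hormone leptin, stayed under 1 TPM in all 10 libraries. Preadipocyte and fibroblast markers summed to 7832 to 13036 TPM in the 8 libraries and to 2095 and 2636 TPM in the 2 labelled APRIL. Most of the saline sum came from 2 collagens, Col1a1 at a mean of 5409 TPM and Col3a1 at 3177 TPM. In the libraries labelled APRIL, Col1a1, Col3a1, Pdgfra and Dpt lay below saline, while Dcn and Lum overlapped it. The sum also hides Dcn with LPS, at 1184 and 682 TPM against 173 and 128 TPM with saline. Macrophage markers summed to 289 to 1543 TPM, with the pan-leukocyte gene Ptprc at no more than 0.22 TPM, and the lymphocyte markers summed to at most 4.10 TPM.

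Promoter stretches are shown for 6 genes whose levels the results turn on, 3 mitotic genes and 3 subunits of the MCM replicative helicase that moved in different directions. Each runs 5' to 3' over the 160 bases before the RefSeq transcription start on GRCm38.p6, on the gene's strand, and capitals mark E2F letters, CHR letters and CCAAT boxes on either strand.
Ccnb1: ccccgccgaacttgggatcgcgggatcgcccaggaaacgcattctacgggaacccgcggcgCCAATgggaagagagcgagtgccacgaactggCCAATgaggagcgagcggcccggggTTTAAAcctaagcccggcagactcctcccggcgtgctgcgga
Cdk1: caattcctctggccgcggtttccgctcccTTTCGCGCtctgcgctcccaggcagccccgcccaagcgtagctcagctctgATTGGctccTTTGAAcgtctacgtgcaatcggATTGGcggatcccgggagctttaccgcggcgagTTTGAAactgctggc
Ube2c: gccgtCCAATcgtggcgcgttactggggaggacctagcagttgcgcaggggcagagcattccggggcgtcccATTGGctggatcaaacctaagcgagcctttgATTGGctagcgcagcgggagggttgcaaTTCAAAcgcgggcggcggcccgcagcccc
Mcm2: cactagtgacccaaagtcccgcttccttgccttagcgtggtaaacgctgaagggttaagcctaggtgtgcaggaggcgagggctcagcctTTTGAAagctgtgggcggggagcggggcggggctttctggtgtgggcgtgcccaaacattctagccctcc
Mcm5: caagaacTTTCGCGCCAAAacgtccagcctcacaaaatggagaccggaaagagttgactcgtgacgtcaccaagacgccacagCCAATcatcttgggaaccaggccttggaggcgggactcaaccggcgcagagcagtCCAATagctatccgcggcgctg
Mcm6: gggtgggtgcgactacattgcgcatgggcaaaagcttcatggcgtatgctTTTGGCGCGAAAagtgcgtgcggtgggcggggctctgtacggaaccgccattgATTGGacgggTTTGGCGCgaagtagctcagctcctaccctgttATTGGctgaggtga
The stretches lie at chr13:100786487-100786646 (minus strand, Ccnb1), chr10:69352913-69353072 (minus strand, Cdk1), chr2:164769769-164769928 (plus strand, Ube2c), chr6:88898781-88898940 (minus strand, Mcm2), chr8:75109349-75109508 (plus strand, Mcm5) and chr1:128359706-128359865 (minus strand, Mcm6). In Ccnb1 the letters TTTAAA begin 42 bases before the start, with CCAAT boxes at 67 and 99 bases before it. Mcm5 carries the overlapping pair TTTCGCGC and GCGCCAAA, and Mcm6 carries TTTGGCGC at 110 and again at 47 bases before its start. No E2F letters fall in the Mcm2 stretch, which holds TTTGAA at 70 bases before the start. The stretches shown do not tie E2F letters to a direction of change. Mcm7 and Cdt1, not shown, rose like Mcm2 in the libraries labelled APRIL and do have such letters. They begin 165 bases before a RefSeq start of Mcm7 and at base 17 after it, while another Mcm7 start has none. In Cdt1 they begin at base 33 after the start.

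Over RefSeq windows from 250 bases before to 50 bases after each start, 17 replication genes and 18 mitotic genes had an entry, with mouse genes of 1 chromosome left out throughout. E2F letters were searched as TTTGGCGC, TTTCCCGC, TTTGCCGC or TTTCGCGC on both strands. They were found for 7 replication genes (41.2%) and 1 mitotic gene (5.56%), against 2.6% of 27025 genes. CHR letters were searched as TTTGAA or TTTAAA on both strands. They were found for 14 mitotic genes (77.8%) and 5 replication genes (29.4%), against 30.6% of all genes. CCAAT boxes were present for 77.8% of the mitotic genes, 64.7% of the replication genes and 41.1% of all genes. A match is a description of letters and not a measured binding site.

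The mean of the mitotic genes was above that of the replication genes in saline, BAFF and LPS libraries and far below it in those labelled APRIL. The 2 means were closest in the norepinephrine libraries. With saline, the mean log2(TPM + 1) was 4.27 and 4.52 over the 23 mitotic genes and 3.72 and 3.87 over the 21 replication genes. With BAFF the mitotic means were 4.54 and 4.50 and the replication means 3.91 and 3.94. With LPS the mitotic means were 4.03 and 4.83 and the replication means 3.37 and 3.87. Both classes had their lowest values outside the libraries labelled APRIL in the first norepinephrine library. With norepinephrine the mitotic means were 2.85 and 3.98 and the replication means 3.05 and 3.52. In the libraries labelled APRIL the mitotic means were 1.73 and 1.94, whereas the replication means were 3.5 and 3.63, inside the range of the other groups. The replication mean minus the mitotic mean ran from -0.95 to -0.46 in 7 of the other 8 libraries, was 0.20 in the first norepinephrine library, and was 1.77 and 1.70 in the libraries labelled APRIL.

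**Figure D1:**
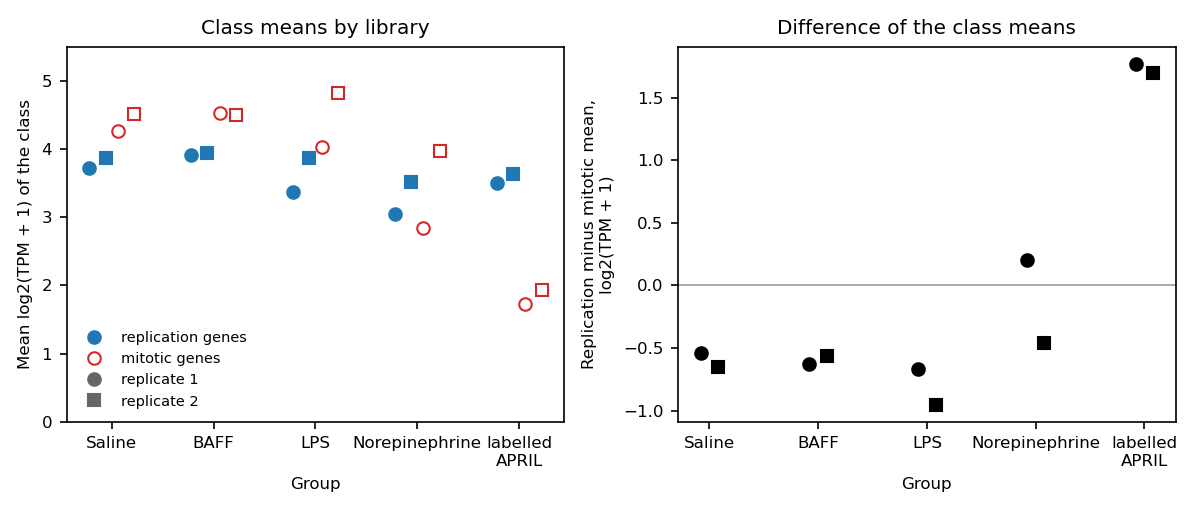
Mean log2(TPM + 1) of the 21 replication genes (filled blue) and the 23 mitotic genes (open red) in each library by group, and at right the replication mean minus the mitotic mean. Circles are replicate 1 and squares replicate 2. The 2 libraries labelled APRIL have the lowest mitotic means, 1.73 and 1.94, and differences of 1.77 and 1.70.

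In the libraries labelled APRIL, 39 of the 44 genes differed from saline, and the 2 classes did so differently. Of the mitotic genes, 22 of 23 fell and none rose, with a median log2 change of -2.63. Of the replication genes, 11 fell, 6 rose and 4 passed no threshold, with a median of -0.64. Differences were called at a Benjamini-Hochberg adjusted p under 0.05 from limma on log2(TPM + 1), adjusted over 14166 genes. Each log2 change is given with its standard error (2 libraries against 2, with the spread taken from all 10), and this scale understates the change of low genes. By the same rule 58.1% of all genes tested were called, 33.1% higher and 25% lower, with a median log2 change of 0.08. A count of called genes therefore says little here, and the values by gene carry the description. Of the 39 calls, 34 were kept whichever library was left out. Since these 2 libraries also lack the Y-linked RNA of their labelled sex, treatment and source cannot be told apart.

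**Figure D2:**
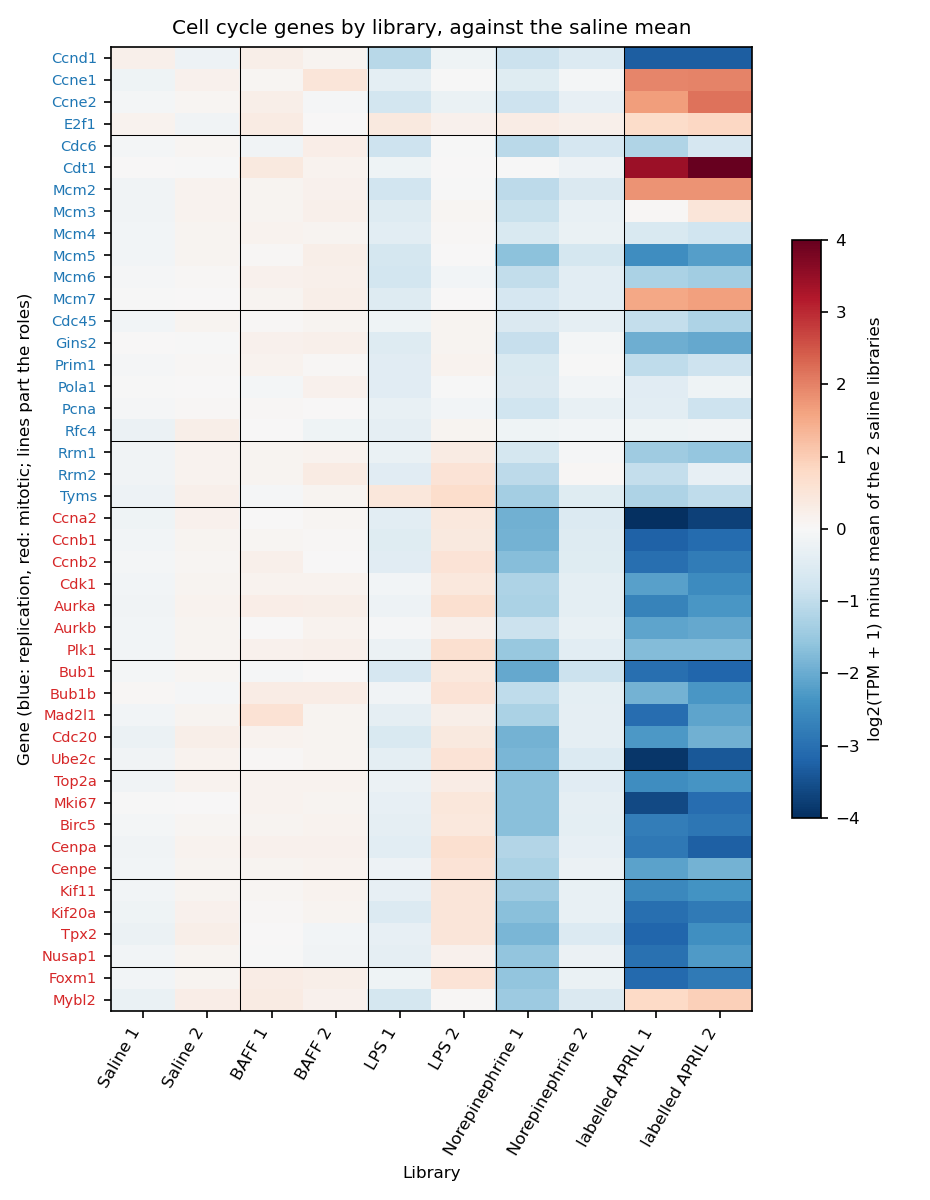
Level of each of the 44 genes (vertical axis, by role) in each of the 10 libraries (horizontal axis), as log2(TPM + 1) minus the mean of the 2 saline libraries, by colour from -4 (blue) to 4 (red), with values beyond these ends drawn in the end colour. In the libraries labelled APRIL 36 genes lie below saline on average and 8 above, and with norepinephrine 43 lie below.

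The G1 to S regulators moved in opposite directions in the libraries labelled APRIL: both E cyclins and E2f1 rose and cyclin D1 fell. Ccnd1 (cyclin D1), which couples growth signals to G1 kinases, stood at 25.6 and 18.8 TPM in saline, 9.67 and 19.2 in LPS, 11.6 and 14.8 in norepinephrine, 26.1 and 23.8 in BAFF libraries and 1.36 and 1.31 in those labelled APRIL. Both libraries labelled APRIL were far below all others, a log2 change of -3.30 ± 0.29 (adjusted p = 6.66e-05). Ccne1 (cyclin E1), the activator of Cdk2 at the start of S phase, was measured at 7.91 and 10.2 TPM in saline, 6.59 and 8.76 in LPS, 6.07 and 8.39 in norepinephrine, 9.48 and 12.9 in BAFF libraries and 37.9 and 38.8 in those labelled APRIL. Its partner Ccne2 (cyclin E2) was at 7.07 and 8.13 TPM in saline, 4.22 and 6.10 in LPS, 3.81 and 5.83 in norepinephrine, 9.15 and 7.27 in BAFF libraries and 26.5 and 38.1 in those labelled APRIL. Neither gene's libraries labelled APRIL overlapped any other library, and the log2 changes against saline were 1.98 ± 0.21 (adjusted p = 0.000170) for Ccne1 and 1.93 ± 0.25 (adjusted p = 0.000413) for Ccne2. E2f1, the E2F factor that activates S-phase genes, stood at 11.1 and 8.94 TPM in saline, 13.3 and 11.5 in LPS, 12.6 and 11.8 in norepinephrine, 12.7 and 10.2 in BAFF libraries and 17.3 and 18.5 in those labelled APRIL. Its log2 change of 0.78 ± 0.15 (adjusted p = 0.00285) was the smallest of the 6 rises.

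Among the genes that load the replicative helicase, Cdt1, Mcm2 and Mcm7 rose in the libraries labelled APRIL while Cdc6, Mcm4, Mcm5 and Mcm6 fell. Cdt1 (ENSMUSG00000006585, chr8:122568015-122573554 on mm10), which brings the MCM ring to origins, stood at 4.89 and 4.80 TPM in saline, 4.16 and 4.95 in LPS, 4.77 and 4.09 in norepinephrine, 6.67 and 5.44 in BAFF libraries and 61.9 and 106 in those labelled APRIL. Its 8 other libraries lay between 4.09 and 6.67 TPM, and the log2 change of 3.81 ± 0.24 (adjusted p = 1.82e-05) was the largest rise of the 44 genes. Cdc6, the ATPase that loads the ring together with Cdt1, was at 2.93 and 3.30 TPM in saline, 1.34 and 3.04 in LPS, 0.952 and 1.56 in norepinephrine, 2.74 and 3.93 in BAFF libraries and 0.793 and 1.57 in those labelled APRIL. Cdc6 moved the other way, by -0.94 ± 0.31 (adjusted p = 0.0313), but lost the call without saline replicate 1 (adjusted p = 0.0827), saline replicate 2 (0.120) or the first library labelled APRIL (0.152).

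The 6 subunits of the MCM ring, which unwinds DNA as a hexamer with 1 copy of each, split into 3 patterns. Mcm2 stood at 7.46 and 9.42 TPM in saline, 4.56 and 8.26 in LPS, 3.5 and 5.28 in norepinephrine, 9.23 and 9.56 in BAFF libraries and 31.9 and 31.8 in those labelled APRIL. Mcm7 was at 28.2 and 29.3 TPM in saline, 20.0 and 29.1 in LPS, 17.5 and 21.4 in norepinephrine, 30.8 and 34.0 in BAFF libraries and 85.7 and 91.2 in those labelled APRIL. Both rose in the libraries labelled APRIL without overlap, by 1.81 ± 0.25 (adjusted p = 0.000625) and 1.59 ± 0.18 (adjusted p = 0.000194) on the log2 scale. Mcm5 (ENSMUSG00000005410, chr8:75109569-75128439 on mm10) was at 8.58 and 10.4 TPM in saline, 5.41 and 9.46 in LPS, 2.36 and 5.35 in norepinephrine, 9.86 and 11.3 in BAFF libraries and 0.874 and 1.25 in those labelled APRIL. Mcm6 was at 21.5 and 23.1 TPM in saline, 13.1 and 20.6 in LPS, 10.7 and 16.3 in norepinephrine, 25.3 and 25.8 in BAFF libraries and 8.78 and 7.85 in those labelled APRIL. Mcm4 was at 12.5 and 14.5 TPM in saline, 9.83 and 14.0 in LPS, 8.42 and 11.0 in norepinephrine, 15.0 and 14.7 in BAFF libraries and 8.43 and 7.35 in those labelled APRIL. These 3 fell, by -2.35 ± 0.33 (adjusted p = 0.000607), -1.33 ± 0.24 (adjusted p = 0.00195) and -0.71 ± 0.19 (adjusted p = 0.0131) respectively. The call of Mcm4 was lost without saline replicate 2 (adjusted p = 0.0792) or the second library labelled APRIL (0.0598). Mcm3 was at 10.6 and 12.8 TPM in saline, 7.84 and 12.3 in LPS, 5.86 and 9.37 in norepinephrine, 12.7 and 13.4 in BAFF libraries and 12.2 and 16.8 in those labelled APRIL, and its libraries labelled APRIL overlapped saline (log2 change 0.28 ± 0.27 (adjusted p = 0.402)). The ratio of the highest to the lowest subunit in TPM was between 3.12 and 7.42 in the 8 other libraries. It was 98.0 and 73.1 in the 2 labelled APRIL, where Mcm7 was the highest and Mcm5 the lowest.

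**Figure D3:**
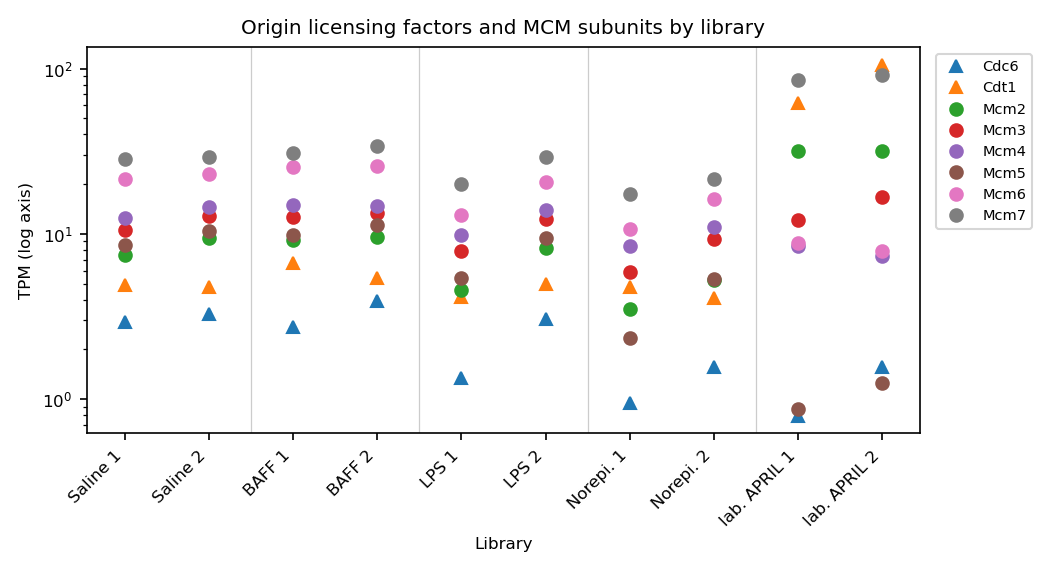
TPM (log axis) of the licensing factors Cdc6 and Cdt1 (triangles) and of the 6 MCM subunits (circles) in each of the 10 libraries. The subunits lie within a ratio of 3.12 to 7.42 in the 8 libraries of saline, BAFF, LPS and norepinephrine, and spread to 98.0 and 73.1 in the libraries labelled APRIL.

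None of the replication fork genes rose in the libraries labelled APRIL, and 4 of 6 fell, where 33.1% of all genes rose and 25% fell. Cdc45, a helicase cofactor, stood at 5.21 and 6.21 TPM in saline, 4.97 and 6.23 in LPS, 3.45 and 4.22 in norepinephrine, 5.94 and 6.29 in BAFF libraries and 2.42 and 1.84 in those labelled APRIL. Gins2, a subunit of the GINS complex that completes the active helicase, was at 22.1 and 21.5 TPM in saline, 14.8 and 23.7 in LPS, 11.1 and 20.5 in norepinephrine, 24.5 and 25.1 in BAFF libraries and 4.90 and 4.54 in those labelled APRIL. Their changes were -1.10 ± 0.17 (adjusted p = 0.000897) and -2.0 ± 0.28 (adjusted p = 0.000624), with every library labelled APRIL below all others. Prim1, the primase subunit that makes RNA primers, was at 7.37 and 7.82 TPM in saline, 5.28 and 8.56 in LPS, 4.62 and 7.47 in norepinephrine, 8.57 and 7.97 in BAFF libraries and 3.29 and 3.84 in those labelled APRIL. Pcna, the sliding clamp, was the most abundant replication gene in each of the 8 libraries not labelled APRIL, at 65.7 and 70.3 TPM in saline, 54.6 and 62.8 in LPS, 38.7 and 54.7 in norepinephrine, 70.3 and 69.2 in BAFF libraries and 50.8 and 37.9 in those labelled APRIL. Prim1 fell by 0.92 ± 0.24 (adjusted p = 0.0131) and Pcna by 0.62 ± 0.19 (adjusted p = 0.0238), but both calls depended on single libraries. That of Prim1 was lost without saline replicate 2 (adjusted p = 0.0617) or the first library labelled APRIL (0.0568). That of Pcna was lost without saline replicate 1 (adjusted p = 0.0665), saline replicate 2 (0.103) or the second library labelled APRIL (0.123). Pola1, the catalytic subunit of the primase-bound polymerase, was at 5.71 and 5.92 TPM in saline, 3.97 and 5.80 in LPS, 3.54 and 5.37 in norepinephrine, 5.45 and 6.60 in BAFF libraries and 3.93 and 5.10 in those labelled APRIL. Rfc4, a subunit of the clamp loader, was at 13.0 and 18.6 TPM in saline, 11.9 and 17.0 in LPS, 13.6 and 14.3 in norepinephrine, 15.9 and 13.6 in BAFF libraries and 13.7 and 14.1 in those labelled APRIL. Neither passed the test, with log2 differences of -0.31 ± 0.22 (adjusted p = 0.259) for Pola1 and -0.16 ± 0.20 (adjusted p = 0.534) for Rfc4.

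Nucleotide supply genes were lower in the libraries labelled APRIL, 2 of 3 past the test, where 58.1% of all genes were called and 25% fell. Rrm1, the large subunit of ribonucleotide reductase, stood at 21.8 and 27.1 TPM in saline, 20.2 and 30.8 in LPS, 14.5 and 23.4 in norepinephrine, 26.3 and 27.0 in BAFF libraries and 8.5 and 7.73 in those labelled APRIL and fell by 1.47 ± 0.25 (adjusted p = 0.00165). Rrm2, its regulatory subunit, was at 24.1 and 30.1 TPM in saline, 19.2 and 39.4 in LPS, 12.5 and 28.1 in norepinephrine, 29.1 and 34.1 in BAFF libraries and 13.5 and 21.2 in those labelled APRIL, with a difference of -0.64 ± 0.43 (adjusted p = 0.235) that did not pass. Tyms (ENSMUSG00000025747, chr5:30058202-30073617 on mm10), the thymidylate synthase, was at 17.3 and 23.6 TPM in saline, 28.1 and 33.2 in LPS, 7.18 and 14.3 in norepinephrine, 19.6 and 21.8 in BAFF libraries and 8.08 and 9.56 in those labelled APRIL. Its LPS libraries were the highest and its first norepinephrine library the lowest, and it fell by 1.12 ± 0.28 (adjusted p = 0.0106) in the libraries labelled APRIL. That call was lost without saline replicate 2 (adjusted p = 0.0700) or the first library labelled APRIL (0.0511).

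All 7 mitotic cyclins and kinases fell in the libraries labelled APRIL, where 25% of all genes fell. Ccna2 (cyclin A2; ENSMUSG00000027715, chr3:36564865-36572150 on mm10), which acts from S phase into mitosis, stood at 27.5 and 34.7 TPM in saline, 22.7 and 42.0 in LPS, 7.38 and 20.8 in norepinephrine, 31.0 and 33.0 in BAFF libraries and 0.795 and 1.42 in those labelled APRIL. Its log2 change of -3.94 ± 0.44 (adjusted p = 0.000211) was the largest fall among the 44 genes. Ccnb1 (cyclin B1), the activator of Cdk1 at mitotic entry, was at 32.2 and 38.4 TPM in saline, 24.6 and 46.6 in LPS, 8.79 and 24.3 in norepinephrine, 37.4 and 36.6 in BAFF libraries and 2.81 and 3.29 in those labelled APRIL. Ccnb2 (cyclin B2) was at 19.0 and 20.9 TPM in saline, 14.2 and 29.9 in LPS, 5.42 and 14.1 in norepinephrine, 22.9 and 20.4 in BAFF libraries and 1.57 and 2.0 in those labelled APRIL. Cyclins B1 and B2 fell by 3.16 ± 0.43 (adjusted p = 0.000542) and 2.91 ± 0.43 (adjusted p = 0.000745). A Ccnb2 pseudogene was listed at a mean of 0.654 TPM, so reads could be split between the copies. Cdk1, the mitotic kinase itself and the most abundant mitotic gene in each of the 8 libraries not labelled APRIL, was at 70.0 and 82.5 TPM in saline, 70.1 and 102 in LPS, 31.9 and 58.4 in norepinephrine, 84.6 and 83.5 in BAFF libraries and 16.0 and 12.4 in those labelled APRIL. Aurka, the spindle pole kinase Aurora A, was at 9.99 and 12.3 TPM in saline, 9.39 and 17.6 in LPS, 4.03 and 8.23 in norepinephrine, 13.6 and 13.1 in BAFF libraries and 0.915 and 1.40 in those labelled APRIL. Aurkb, the Aurora B kinase of the chromosomal passenger complex, was at 16.5 and 19.6 TPM in saline, 17.6 and 20.9 in LPS, 9.55 and 14.6 in norepinephrine, 18.1 and 19.8 in BAFF libraries and 3.43 and 3.61 in those labelled APRIL. Their falls were 2.35 ± 0.29 (adjusted p = 0.000312), 2.49 ± 0.34 (adjusted p = 0.000548) and 2.07 ± 0.19 (adjusted p = 8.74e-05) in that order, again without overlap. Plk1, the Polo-like kinase, was at 12.5 and 14.5 TPM in saline, 11.2 and 21.7 in LPS, 4.08 and 9.72 in norepinephrine, 15.4 and 15.7 in BAFF libraries and 3.38 and 3.31 in those labelled APRIL, a fall of 1.73 ± 0.37 (adjusted p = 0.00483), the smallest among the mitotic calls.

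The 5 spindle checkpoint and anaphase-promoting complex (APC/C) genes also fell in the libraries labelled APRIL, beside 25% of all genes. Ube2c (ENSMUSG00000001403, chr2:164769898-164778822 on mm10), the ubiquitin-conjugating enzyme of the APC/C, stood at 34.5 and 42.5 TPM in saline, 28.9 and 57.0 in LPS, 9.95 and 25.8 in norepinephrine, 40.0 and 41.2 in BAFF libraries and 1.63 and 2.72 in those labelled APRIL. Cdc20, the APC/C activator, was at 22.6 and 31.2 TPM in saline, 17.2 and 34.9 in LPS, 6.38 and 20.4 in norepinephrine, 29.2 and 28.6 in BAFF libraries and 4.65 and 6.31 in those labelled APRIL. Ube2c fell by 3.65 ± 0.44 (adjusted p = 0.000300) and Cdc20 by 2.10 ± 0.49 (adjusted p = 0.00758). Bub1, a checkpoint kinase at kinetochores, was at 11.2 and 12.7 TPM in saline, 7.15 and 16.3 in LPS, 2.14 and 6.15 in norepinephrine, 11.5 and 12.2 in BAFF libraries and 0.616 and 0.433 in those labelled APRIL. Bub1b, which encodes the checkpoint protein BubR1, was at 19.3 and 18.4 TPM in saline, 16.8 and 28.0 in LPS, 8.72 and 14.2 in norepinephrine, 23.4 and 23.6 in BAFF libraries and 4.33 and 2.98 in those labelled APRIL. Mad2l1, which encodes the checkpoint protein Mad2, was at 43.96 and 51.8 TPM in saline, 37.1 and 56.8 in LPS, 19.1 and 37.2 in norepinephrine, 72.1 and 51.2 in BAFF libraries and 4.91 and 10.3 in those labelled APRIL. Falls were 3.09 ± 0.43 (adjusted p = 0.000562) for Bub1, 2.11 ± 0.28 (adjusted p = 0.000470) for Bub1b and 2.57 ± 0.40 (adjusted p = 0.00105) for Mad2l1, and each library labelled APRIL lay below the other 8. Within the group, Mad2l1 was 4.91 and 10.3 TPM, the widest gap of these 5 genes there.

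Genes of mitotic chromosomes and kinetochores fell in all 5 cases in the libraries labelled APRIL, beside 25% of all genes. Top2a, the topoisomerase that untangles sister chromatids, stood at 42.7 and 51.8 TPM in saline, 40.1 and 58.6 in LPS, 14.0 and 34.0 in norepinephrine, 52.0 and 52.2 in BAFF libraries and 7.49 and 8.37 in those labelled APRIL. Mki67, the gene of the proliferation marker Ki-67, was at 18.4 and 18.9 TPM in saline, 14.5 and 25.7 in LPS, 5.13 and 14.5 in norepinephrine, 20.7 and 20.4 in BAFF libraries and 0.606 and 1.36 in those labelled APRIL. Birc5 (survivin), a passenger complex subunit, was at 22.0 and 24.9 TPM in saline, 17.9 and 31.7 in LPS, 6.61 and 17.6 in norepinephrine, 25.4 and 25.8 in BAFF libraries and 2.61 and 2.32 in those labelled APRIL. Mki67 fell furthest of the 3, by 3.34 ± 0.43 (adjusted p = 0.000393), beside 2.43 ± 0.36 (adjusted p = 0.000778) for Top2a and 2.82 ± 0.40 (adjusted p = 0.000638) for Birc5. Cenpa, the centromeric histone, was at 23.7 and 28.9 TPM in saline, 19.3 and 41.2 in LPS, 11.2 and 20.7 in norepinephrine, 29.5 and 29.5 in BAFF libraries and 2.71 and 1.84 in those labelled APRIL, a fall of 3.07 ± 0.37 (adjusted p = 0.000301). Cenpe, a kinetochore motor, was at 5.19 and 6.07 TPM in saline, 4.71 and 8.62 in LPS, 1.73 and 4.59 in norepinephrine, 6.10 and 6.24 in BAFF libraries and 0.490 and 0.781 in those labelled APRIL, a fall of 2.02 ± 0.35 (adjusted p = 0.00180).

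Spindle motors and assembly factors followed, with 4 of 4 falling, again beside 25% of all genes. Kif11, the motor that separates the spindle poles, stood at 7.56 and 8.94 TPM in saline, 6.34 and 11.9 in LPS, 2.42 and 6.45 in norepinephrine, 8.84 and 9.09 in BAFF libraries and 0.555 and 0.742 in those labelled APRIL. Kif20a, a motor of cytokinesis, was at 14.9 and 19.4 TPM in saline, 11.4 and 24.2 in LPS, 4.67 and 13.7 in norepinephrine, 17.8 and 18.3 in BAFF libraries and 1.23 and 1.56 in those labelled APRIL. Tpx2, the spindle assembly factor that activates Aurora A, was at 33.7 and 47.4 TPM in saline, 31.7 and 55.8 in LPS, 10.5 and 27.4 in norepinephrine, 40.2 and 36.9 in BAFF libraries and 3.56 and 6.44 in those labelled APRIL. Log2 falls were 2.49 ± 0.37 (adjusted p = 0.000865), 2.92 ± 0.46 (adjusted p = 0.00107) and 2.82 ± 0.45 (adjusted p = 0.00122), in that order. Nusap1, a microtubule-bundling protein, was at 10.05 and 11.7 TPM in saline, 8.18 and 12.5 in LPS, 2.95 and 9.07 in norepinephrine, 10.8 and 9.72 in BAFF libraries and 0.503 and 1.44 in those labelled APRIL and fell by 2.63 ± 0.43 (adjusted p = 0.00128).

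The 2 transcription factors of the mitotic programme differed in direction in the libraries labelled APRIL. Foxm1 was at 10.3 and 12.4 TPM in saline, 9.79 and 17.1 in LPS, 3.08 and 9.22 in norepinephrine, 14.0 and 13.5 in BAFF libraries and 0.411 and 0.713 in those labelled APRIL, a fall of 2.98 ± 0.41 (adjusted p = 0.000557). Mybl2 (B-Myb), itself an E2F target, was at 5.04 and 7.91 TPM in saline, 3.46 and 6.53 in LPS, 1.69 and 3.87 in norepinephrine, 8.27 and 7.22 in BAFF libraries and 11.7 and 13.3 in those labelled APRIL. Both libraries labelled APRIL were above the other 8 for Mybl2, yet its log2 difference of 0.88 ± 0.34 (adjusted p = 0.0586) did not pass, and it was the only mitotic gene without a call.

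**Figure D4:**
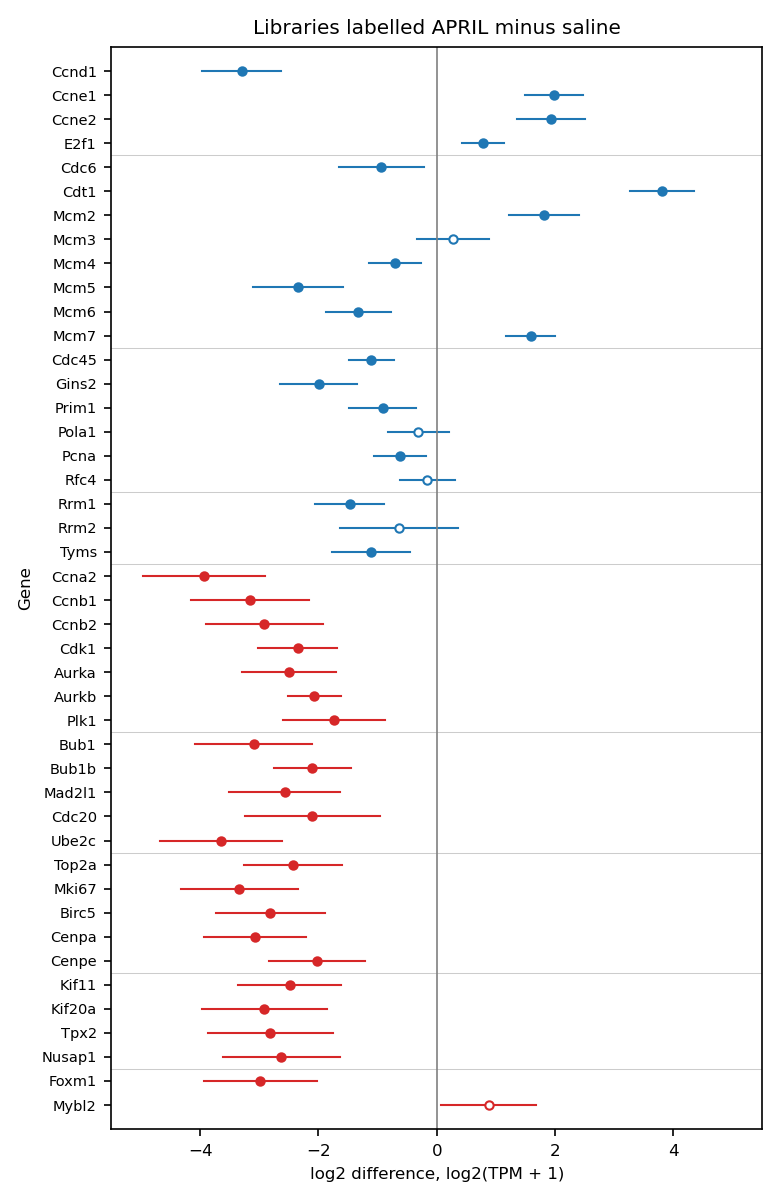
Log2 difference between the libraries labelled APRIL and saline for each gene on log2(TPM + 1), with 95% intervals; blue marks replication genes, red mitotic genes, and filled points have an adjusted p under 0.05. The 22 called mitotic genes lie to the left of 0, and the replication genes spread from -3.30 (Ccnd1) to 3.81 (Cdt1).

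With norepinephrine, 43 of the 44 genes were lower than with saline in mean value, but none passed the adjusted test. Of all 14166 genes tested, 6227 were lower in mean value. The median log2 difference was -0.98 for the mitotic genes and -0.50 for the replication genes, against 0.04 for all genes. By the same rule 0.699% of all genes tested were called, 0.0847% lower. That share stands for 99 genes, a count that ranged from 0 to 849 with 1 library left out. Both norepinephrine libraries lay below both saline libraries for 23 of 23 mitotic genes and 15 of 21 replication genes, an arrangement that 22.9% of all genes showed. At an unadjusted p under 0.05, 27 of the 44 genes were lower and none higher, where 6.4% of all genes were lower and 11.2% higher. The smallest adjusted p was 0.139, that of Mcm5. Bub1 had the widest difference, -1.45 ± 0.43 (adjusted p = 0.155), from 11.2 and 12.7 TPM with saline to 2.14 and 6.15 TPM. Ccna2 differed by -1.24 ± 0.44 (adjusted p = 0.218) and Mcm5 by -1.18 ± 0.33 (adjusted p = 0.139). The exception was E2f1, higher by 0.26 ± 0.15 (adjusted p = 0.398). The 95% intervals of the 44 differences ran from -2.44 to 0.61.

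The norepinephrine differences varied with the library used. The second norepinephrine library was above the first for 23 of 23 mitotic genes and 19 of 21 replication genes, beside 57.4% of all genes. The mitotic genes differed by a median of 1.22 on the log2 scale between these 2 libraries, and all genes by 0.04. Without norepinephrine replicate 1 the median mitotic difference from saline was -0.38, and without replicate 2 it was -1.59. The median replication difference without replicate 2 was -0.80. Adipocyte markers summed to 15518 and 15918 TPM with norepinephrine against 8259 and 9511 TPM with saline. Most of that sum was Fabp4, at 11391 and 11802 TPM against 5452 and 6287 TPM. Cidec, Lipe, Pnpla2, Pparg and Retn also lay above saline in both libraries, Adipoq, Plin1 and Cfd overlapped it, and Lep was lower. None of the 9 adipocyte markers tested passed the adjusted test. Fibroblast markers summed to 9173 and 7832 TPM with norepinephrine against 10397 and 9172 TPM with saline. Smooth muscle and pericyte markers summed to between 942 and 1094 TPM with norepinephrine and between 1560 and 1649 TPM with saline. Their part in the differences was not tested.

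LPS left the mitotic genes with a median log2 difference of 0.05 from saline and the replication genes with -0.21, against -0.01 over all genes. None of the 44 genes passed the test, whereas 3.8% of all genes did (2.87% higher and 0.932% lower), and none reached an unadjusted p under 0.05. The 539 genes behind that share became 112 to 943 with 1 library left out. The LPS libraries overlapped the saline libraries for every mitotic gene. Both LPS libraries lay above both saline libraries for 2 of 21 replication genes and below for 3. Among all genes, 24.2% lay above and 25.5% below in that way. The second LPS library was above the first in all 23 mitotic genes, beside 62.3% of all genes. The sign of the mitotic median depended on single libraries, at 0.44 without LPS replicate 1, -0.35 without LPS replicate 2 and -0.06 without saline replicate 1. Without LPS replicate 1 the replication median was 0.03, and without replicate 2 it was -0.45. Tyms was the only nucleotide supply gene with both LPS libraries above both saline libraries, 28.1 and 33.2 against 17.3 and 23.6 TPM, a difference of 0.57 ± 0.28 (adjusted p = 0.380). Ccnd1 was at 9.67 and 19.2 TPM against 25.6 and 18.8 TPM (-0.65 ± 0.29 (adjusted p = 0.324)). The 95% intervals ran from -1.31 to 1.23.

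Set directly against norepinephrine, LPS gave higher mean values for all 44 genes, beside 6315 of all 14166 genes tested, and 1 of the 44, Tyms, was called. Both LPS libraries lay above both norepinephrine libraries for 19 of the 44 and below for none, where 22% and 32.8% of all genes did so. At an unadjusted p under 0.05, 20 of the 44 were higher and none lower, where 10.6% of all genes were higher and 14.4% lower. The LPS libraries held 28.1 and 33.2 TPM of Tyms and the norepinephrine libraries 7.18 and 14.3 TPM, a log2 difference of 1.5 ± 0.28 (adjusted p = 0.0223), where 7.81% of all genes were called, 3.62% higher and 4.19% lower. That call was lost without LPS replicate 1 (adjusted p = 0.0850), LPS replicate 2 (0.107) or norepinephrine replicate 1 (0.0770), and in the fit of the 4 compared libraries alone (0.104). Without norepinephrine replicate 2, 9 of the 44 genes were called, where 373 of all genes were, against 1107 with all libraries. Over the libraries left out in turn, that count of all genes ranged from 217 to 2181. The median difference was 1.03 for the mitotic genes and 0.30 for the replication genes, and -0.04 for all genes. It ranged from 0.45 to 1.71 for the mitotic genes with 1 library left out.

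BAFF moved none of the 44 genes past the test, and the smallest adjusted p was 0.996. Medians were 0.12 for the mitotic genes and 0.15 for the replication genes, against 0.11 for all genes, and 0.0141% of all genes were called. With 1 library left out the medians ranged from 0.0072 to 0.226 for the mitotic genes and from 0.0257 to 0.196 for the replication genes. At an unadjusted p under 0.05 the count was also 0. Both BAFF libraries lay above both saline libraries for 16 of 44 genes and below for none, where 40.4% and 3.76% of all genes did so. Mad2l1 showed the widest mean difference, 0.34 ± 0.40 (adjusted p = 0.996), with 72.1 and 51.2 TPM against 44 and 51.8 TPM. The 95% intervals ran from -1.11 to 1.28. Set against the libraries labelled APRIL, BAFF libraries differed in 39 genes, 33 higher and 6 lower, where 57.3% of all genes were called, 28.3% higher and 29% lower. This contrast reuses the 2 libraries labelled APRIL that were compared with saline, so it is not a separate result. Treatment and source cannot be told apart in it either. The medians there were 2.76 for the mitotic genes and 0.84 for the replication genes.

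**Figure D5:**
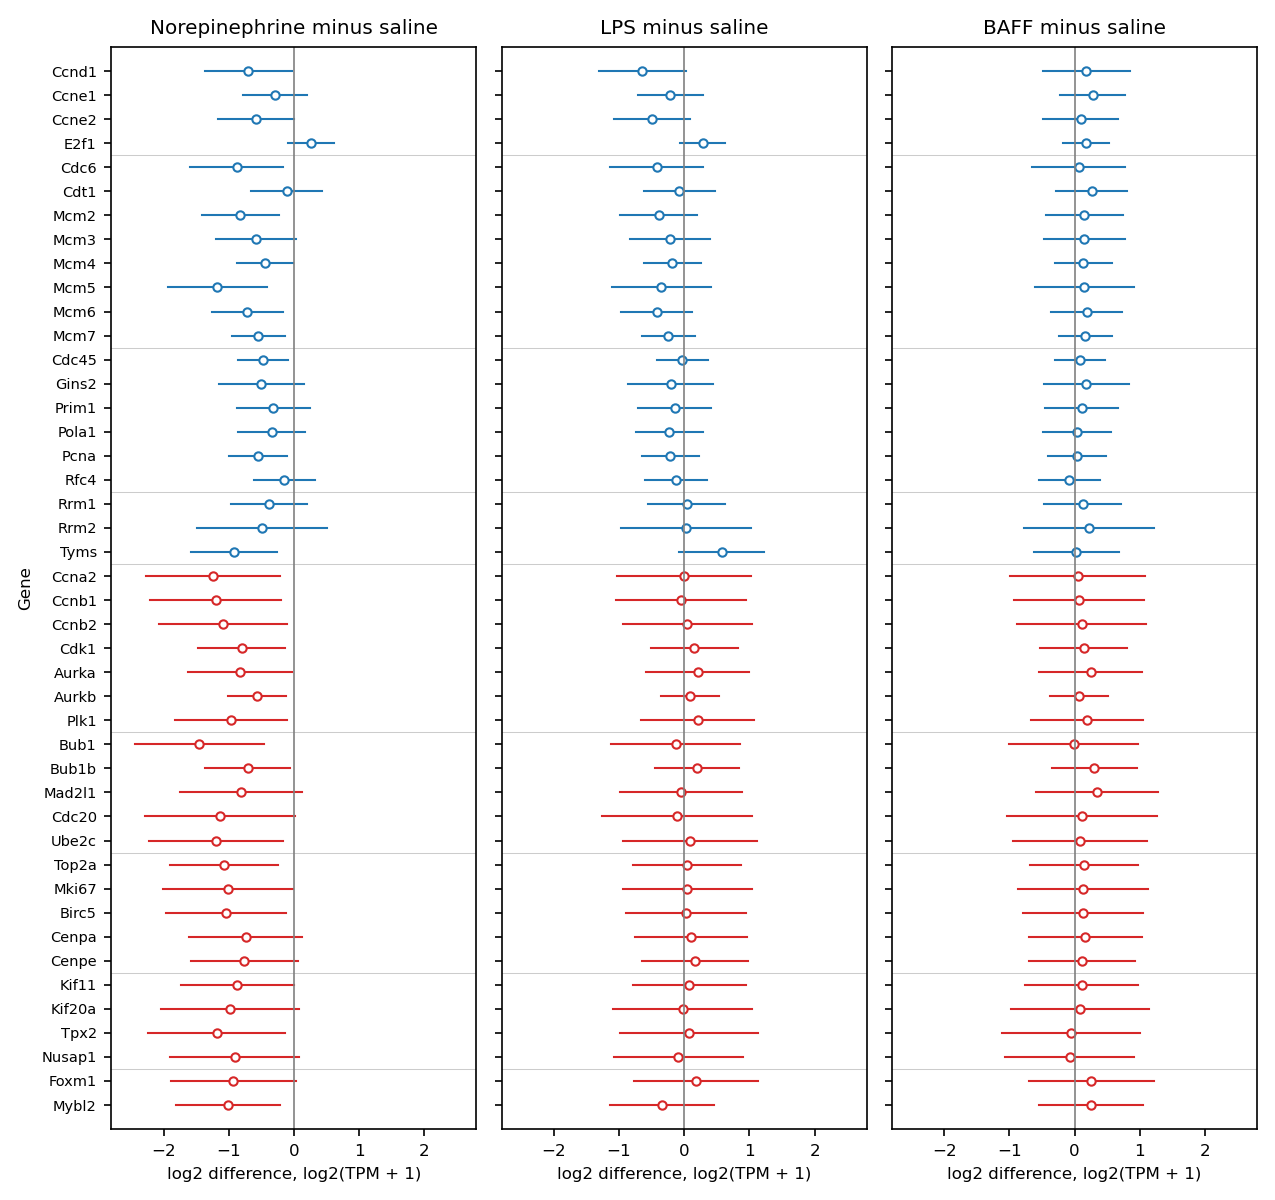
Log2 difference from saline of each gene on log2(TPM + 1), with 95% intervals, for norepinephrine (left), LPS (middle) and BAFF (right); blue marks replication genes and red mitotic genes, and open points did not pass an adjusted p of 0.05. With norepinephrine 43 of 44 points lie below 0, and no gene passes in any of the 3 panels.

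Over all 5 groups, 39 of 44 genes differed (limma F-test, adjusted), where 60.4% of all genes did. Over saline, BAFF, LPS and norepinephrine alone, none of the 44 passed the adjusted test, where 12% of all genes did. At an unadjusted p under 0.05, 11 of the 44 passed, where 31.1% of all genes did, and the smallest adjusted p was 0.0729, that of Tyms. The number of calls over these 4 groups depended on single libraries, both among the 44 genes and among all genes. Leaving a library out leaves its group with a single library, so no effect on the 44 genes was read from those fits.

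Libraries of 1 group differed among themselves in these genes more in some groups than in others. The second library was above the first for 22 of 23 mitotic genes in saline, 23 in LPS, 23 in norepinephrine, 11 in BAFF and 17 in APRIL-labelled libraries. Of all genes, 52.4% were higher in the second library in saline, 62.3% in LPS, 57.4% in norepinephrine, 38.3% in BAFF and 41.2% in APRIL-labelled libraries. The median log2 gap of the mitotic genes was 0.24 in saline, 0.80 in LPS, 1.22 in norepinephrine, under 0.01 in size in BAFF and 0.20 in APRIL-labelled libraries. Over all genes it was between -0.07 and 0.08. Macrophage markers summed higher in the first library of each group, at 1293 and 428 TPM in saline, 1543 and 402 in LPS, 1282 and 289 in norepinephrine, 1095 and 495 in BAFF and 495 and 335 in APRIL-labelled libraries. Other cell types shifted too. Of 10 adipocyte markers, 9 were higher in the second library in saline, 7 in LPS, 7 in norepinephrine, 9 in BAFF and 1 in APRIL-labelled libraries. Of 10 preadipocyte and fibroblast markers, 2, 1, 5, 0 and 8 were, in that order. The part of these markers in the gaps was not tested.

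Genes of the same pathways outside the 44 were counted from lists chosen by function. Of 35 other replication genes, 8 rose and 15 fell in the libraries labelled APRIL against saline (median log2 change -0.43), and without saline replicate 2, 15 were called in all. Of 38 other mitotic genes, 2 rose and 32 fell in that comparison (median -1.83). Of all genes tested 58.1% were called there, 33.1% higher and 25% lower. Neither list had a call with norepinephrine, LPS or BAFF against saline. Fen1, the flap endonuclease of Okazaki fragment processing, was at 6.78 and 7.61 TPM in saline, 4.98 and 7.53 in LPS, 3.11 and 4.38 in norepinephrine, 9.04 and 7.88 in BAFF libraries and 2.0 and 2.69 in those labelled APRIL. It fell by 1.30 ± 0.22 (adjusted p = 0.00143) in the libraries labelled APRIL and differed by -0.80 ± 0.22 (adjusted p = 0.129) with norepinephrine. Mcm10, a fork factor apart from the MCM ring, was at 4.24 and 4.06 TPM in saline, 2.09 and 4.57 in LPS, 1.49 and 3.51 in norepinephrine, 6.13 and 7.23 in BAFF libraries and 8.96 and 13.5 in those labelled APRIL. Mcm10 rose by 1.22 ± 0.36 (adjusted p = 0.0195), a call lost without saline replicate 1 (adjusted p = 0.0668), saline replicate 2 (0.0753) or the second library labelled APRIL (0.107). Rpa2 and Rpa3, subunits of the single-strand binding protein, changed in opposite directions, by 0.42 ± 0.13 (adjusted p = 0.0240) and -1.17 ± 0.14 (adjusted p = 0.000273), the former lost without any 1 of the 4 compared libraries (adjusted p up to 0.129) and in the fit of those 4 alone (0.0564). Chaf1a, a histone chaperone subunit, fell by 1.42 ± 0.22 (adjusted p = 0.00110). Dut, which removes dUTP, fell by 1.29 ± 0.23 (adjusted p = 0.00180).

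Among the other mitotic genes, Pbk, a mitotic kinase, was at 14.5 and 14.1 TPM in saline, 14.8 and 17.2 in LPS, 4.41 and 9.27 in norepinephrine, 18.1 and 17.4 in BAFF libraries and 0.452 and 0.442 in those labelled APRIL. Pbk fell by 3.41 ± 0.26 (adjusted p = 3.77e-05) in the libraries labelled APRIL and was higher with LPS than with norepinephrine by 1.19 ± 0.26 (adjusted p = 0.0352), a call lost in the fit of the 4 compared libraries alone (adjusted p = 0.153) and without any 1 of the saline, BAFF or LPS libraries or norepinephrine replicate 1 (0.0662 to 0.146). Pttg1 (securin) and Wee1, the kinase that restrains Cdk1, were the 2 that rose. Pttg1 was at 40.0 and 38.4 TPM in saline, 45.5 and 41.6 in LPS, 49.97 and 55.6 in norepinephrine, 46.2 and 42.4 in BAFF libraries and 76.1 and 57.0 in those labelled APRIL, a rise of 0.73 ± 0.14 (adjusted p = 0.00323). Wee1 was at 6.77 and 8.22 TPM in saline, 6.00 and 6.08 in LPS, 6.07 and 6.77 in norepinephrine, 8.60 and 8.73 in BAFF libraries and 16.3 and 18.4 in those labelled APRIL, a rise of 1.11 ± 0.13 (adjusted p = 0.000211). Tacc3, a spindle microtubule protein, fell by 2.02 ± 0.31 (adjusted p = 0.000993), Cdc25b, a Cdk1-activating phosphatase, by 1.12 ± 0.12 (adjusted p = 0.000175), and Smc2, a condensin subunit, by 1.42 ± 0.27 (adjusted p = 0.00298).

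Of 15 CDK inhibitors and quiescence genes tested, 6 rose and 4 fell in the libraries labelled APRIL, beside 33.1% and 25% of all genes. Cdkn1a (p21), a CDK inhibitor induced by p53, stood at 102 and 87.0 TPM in saline, 124 and 105 in LPS, 121 and 121 in norepinephrine, 113 and 97.5 in BAFF libraries and 414 and 248 in those labelled APRIL. It rose by 1.76 ± 0.23 (adjusted p = 0.000400). Gadd45a, a growth arrest gene, was at 31.4 and 31.3 TPM in saline, 45.3 and 28.4 in LPS, 36.2 and 29.4 in norepinephrine, 38.6 and 30.1 in BAFF libraries and 576 and 510.4 in those labelled APRIL. Its rise was 4.07 ± 0.22 (adjusted p = 1.21e-05), and that of the antiproliferative gene Btg2 was 3.18 ± 0.15 (adjusted p = 8.77e-06); these 2 genes were singled out after their values were seen. Ccng2, a cyclin linked to arrest, rose by 1.63 ± 0.17 (adjusted p = 0.000155). Btg1, a relative of Btg2, rose by 0.97 ± 0.27 (adjusted p = 0.0169), a call lost without saline replicate 2 (adjusted p = 0.0791) and in the fit of the 4 compared libraries alone (0.0780). Cdkn1b (p27) fell by 1.00 ± 0.12 (adjusted p = 0.000327), and Cdkn2b (p15) did not pass (0.38 ± 0.41 (adjusted p = 0.454)). Cdkn2c (p18), an inhibitor of Cdk4 and Cdk6, was at 63.2 and 63.5 TPM in saline, 24.7 and 28.0 in LPS, 61.1 and 53.6 in norepinephrine, 62.2 and 65.8 in BAFF libraries and 6.32 and 3.28 in those labelled APRIL. It fell by 3.52 ± 0.22 (adjusted p = 2.02e-05) in the libraries labelled APRIL and by 1.24 ± 0.22 (adjusted p = 0.0264) with LPS, the only call of these 4 lists when BAFF, LPS or norepinephrine was compared with saline. The LPS call was lost when any 1 of the saline, LPS or BAFF libraries was left out, with adjusted p from 0.0581 to 0.170.

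Of 19 G1 cyclins, CDKs, E2F and MuvB factors tested, 7 rose and 2 fell in the libraries labelled APRIL, again beside 33.1% and 25% of all genes. Myc, a driver of cell growth and G1 progression, was at 26.3 and 27.0 TPM in saline, 23.2 and 25.5 in LPS, 21.8 and 23.1 in norepinephrine, 32.9 and 29.7 in BAFF libraries and 277 and 322 in those labelled APRIL. Its rise of 3.44 ± 0.11 (adjusted p = 2.60e-06) placed both libraries labelled APRIL above all others. Lin54, the MuvB subunit that binds CHR letters, was at 6.41 and 5.90 TPM in saline, 7.10 and 7.63 in LPS, 4.63 and 5.78 in norepinephrine, 6.47 and 6.52 in BAFF libraries and 23.0 and 33.9 in those labelled APRIL, and Lin37, another MuvB subunit, was at 22.2 and 24.8 TPM in saline, 23.3 and 26.0 in LPS, 23.7 and 26.4 in norepinephrine, 27.9 and 32.5 in BAFF libraries and 66.6 and 88.0 in those labelled APRIL. They rose by 2.02 ± 0.18 (adjusted p = 8.24e-05) and 1.66 ± 0.16 (adjusted p = 8.96e-05). E2f4, a repressor E2F, Tfdp2, an E2F partner, and E2f2 passed no comparison with saline. Their log2 differences in the libraries labelled APRIL were 0.19 ± 0.12 (adjusted p = 0.209), 0.19 ± 0.15 (adjusted p = 0.310) and -0.07 ± 0.22 (adjusted p = 0.814) in that order.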

How the data were processed

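Per the labels' protocols, RNA of 10 samples was made into Illumina TruSeq libraries. The authors deposited TPM values per gene, 1 file per library, and the submitters' processing notes name kallisto and mm10; versions, annotation and filters are not given in the sources used here. Totals were 953553 to 964726 TPM per library, 12845 to 13115 genes reached 1 TPM, and read depth is unknown. The 28987 Ensembl identifiers were matched to symbols and coordinates in GENCODE vM21 (27458 matched), and promoters came from RefSeq on GRCm38.p6.

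Genes with at least 1 TPM in 2 libraries (14166) were fitted on the log2(TPM + 1) scale (limma 3.58.1, R 4.3.3) with 1 mean per group over all 10 libraries, 5 residual degrees of freedom and a variance trend. Contrasts with saline, BAFF against the libraries labelled APRIL, LPS against norepinephrine, and F-tests over 5 groups and over the 4 groups without APRIL (8 libraries) were adjusted by Benjamini-Hochberg at 0.05. The fit was tested on simulated data. The 44 genes, the other pathway lists, the marker lists and the tests were chosen with earlier results of these data known. Text values are given for members called against saline, the 12 with the smallest 4-group p and the 2 most abundant per role, a rule that left out Mcm3, Pola1 and Rfc4; these 3 were added after their values were seen so that every member is described. Values are also given for up to 6 genes per other list by the 4-group p and by calls. TPM values sum to a constant, so a change in abundant genes moves all others. Alternatives were pseudocounts of 0.1 and 0.5, no filter, a mean of at least 5 TPM, median-ratio scaling, mitochondrial genes left out, a replicate block, no trend, and libraries left out.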

Additional observations from a re-analysis of the deposited data

How the results depend on the processing

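Every alternative kept the direction of each called gene named here. Against saline, the libraries labelled APRIL had 34 to 40 of the 44 genes called with 1 library left out, BAFF against APRIL 35 to 39, and the test over 5 groups 33 to 39. The medians of the mitotic genes for these 2 contrasts became -3.20 and 3.42 with a pseudocount of 0.1. LPS against norepinephrine was the least stable count: 1 gene was called, 0 with no filter, 0 with the 4 compared libraries alone, 3 with median-ratio scaling, and 0 to 9 with 1 library left out. The test over 4 groups gave 0 to 3 with 1 library left out.

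With 1 library left out, the median of the replication genes ranged from -0.45 to 0.0267 for LPS against saline, from -0.80 to -0.28 for norepinephrine against saline, and from 0.0294 to 0.56 for LPS against norepinephrine. That of the mitotic genes ranged from -0.35 to 0.44 for LPS against saline, from -1.59 to -0.38 for norepinephrine against saline and from 0.45 to 1.71 for LPS against norepinephrine. A group with 1 library left was assumed to vary like the others. The cause of these shifts was not tested.

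The labels number the libraries 1 and 2 in each group but do not say that a number marks a shared culture or batch. Deviations of same-numbered libraries correlated at 0.272 to 0.479 among saline, BAFF, LPS and norepinephrine, and at -0.108 to 0.026 with the libraries labelled APRIL. With the replicate block, LPS against norepinephrine called 6 of the 44 genes, where 1306 of all 14166 genes tested were called. The test over 4 groups then called 9 of the 44, where 2937 of the 14166 were called. A further alternative, with the block and without the libraries labelled APRIL, was chosen after seeing the data. Norepinephrine against saline then called 9 of the 44, all lower, where 1648 of the 14166 were called, 452 of them lower. LPS against norepinephrine called 13 of the 44, where 3147 of the 14166 were called. Over all genes tested, norepinephrine against saline called 99 genes, 167 with the block, 843 without the libraries labelled APRIL, 1648 with both and 0 to 849 with 1 library left out. LPS against saline called 539, 226 with the 4 compared libraries alone, 922 without the libraries labelled APRIL, 1647 with both changes and 112 to 943 with 1 library left out. LPS against norepinephrine called 1107, 719 with no filter, 628 with the 4 compared libraries alone, 2176 without the libraries labelled APRIL, 3147 with both and 217 to 2181 with 1 library left out. The test over 4 groups called 1702, 2937 with the block and 681 to 1748 with 1 library left out. BAFF against saline called 2, 12 with no filter and 2 to 4 with 1 library left out. Norepinephrine against saline called 43 with a pseudocount of 0.1, 55 with no filter, 62 without a trend and 61 with mitochondrial genes left out.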
